A study of Mus musculus with 32 samples.

Results

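The comparison is between Mettl14 conditional knockout (CKO) and control mouse embryonic stem cells, read as N6-methyladenosine (m6A) immunoprecipitation peaks on polyadenylated RNA (mRNA). The peak lists of 4 samples make it up, 2 controls and 2 knockouts, out of 32 samples in the series and 16 samples with a peak list. Peaks of the 4 lists that shared at least 1 bp on the same strand were merged into 27173 regions. A region was called lost when both controls and no knockout held a peak in it, gained when both knockouts and no control did, and retained when all 4 lists did. The cells are C57BL/6 embryonic stem cells, kept in medium with fetal bovine serum, LIF at 1000 U/ml, CHIR99021 at 3 µM and PD0325901 at 1 µM. LIF is a cytokine that holds the cells undifferentiated, CHIR99021 inhibits the kinase GSK3 and PD0325901 inhibits the kinase MEK. Controls and knockouts are labelled with the same strain and medium. The labels do not give the allele, the way or extent of the deletion, the number of clones, or whether the 2 replicates of a group are separate cultures, so the spread between replicates may be technical.

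Among the marks inside messenger RNA, m6A is the most common. It is written mainly by a heterodimer in which METTL3 holds the catalytic site and METTL14 helps to hold the RNA, together with WTAP, VIRMA, ZC3H13, HAKAI (Cbll1) and RBM15. The mark falls mostly on DRACH sequences, of which GGAC is the best known core, and it gathers around stop codons and in long internal exons. In embryonic stem cells m6A shortens the life of transcripts of pluripotency and lineage genes, and readers of the YTH family carry out much of that decay. In this assay RNA is fragmented, an antibody pulls down fragments with m6A, and a peak marks a place where pulled-down fragments pile up. A peak list is therefore a list of sites that passed a threshold, and it moves with read depth, with RNA abundance and with the efficiency of the pull-down as well as with methylation.

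The control lists held 16537 and 17738 peaks and the knockout lists 23380 and 22654, so each knockout list was longer than both control lists. The difference of 5880 peaks gave p = 0.333 in an exact two-sided permutation test over the 6 splits of 4 samples, the smallest p that 2 samples against 2 can give. The covered length was 6846 and 7302 kb in the controls against 9862 and 9588 kb in the knockouts. Read depth was unknown, since the lists carry no counts, and the input samples were not used here. Peaks on the 2 RNA spike-ins of the enrichment kit were set aside. The fold of the peak on the minus strand of spike-in 2 was 5.67 and 5.25 in the controls against 7.33 and 9.66 in the knockouts, higher in both knockouts. The labels do not say which spike-in carries m6A. Within the Mettl14 gene body 3 regions were called, none of them in both controls or in both knockouts, and knockout 1 held 1 of them at a fold of 2.30, so the peak lists do not check the deletion. Of 8 genes that mark embryonic stem cells, 3 and 4 carried a peak in the controls against 5 and 5 in the knockouts. Pou5f1, Sox2 and Utf1 carried none in any list, and a missing peak says nothing of whether a gene is expressed. Of 8 markers of feeder fibroblasts, 3 and 3 carried a peak in the controls against 4 and 4 in the knockouts. Of 9 epiblast and germ layer markers, 3 and 3 did in the controls against 7 and 7 in the knockouts. Of 4 trophectoderm markers, 2 and 3 did in the controls against 3 and 3 in the knockouts. Over all genes, 6850 were marked in both controls and 8551 in both knockouts. With lists of equal length none of the 11 knockout regions in a longer list of epiblast and germ layer markers was gained.

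Sequences of 2 kinds bear on the results that follow. The first are pieces of the first 50 transcribed bases of genes whose start lay under a gained region on the gene's own strand, because gained regions were more frequent near starts than retained ones. Each piece is printed 5′ to 3′ from RefSeq (GRCm38.p6, the same coordinates as mm10), 30 bases long, with the GGAC core in capitals.
Zfp458, chr13:67268965-67268994, minus strand: agGGACtgtgcagggtggcgggtcgggcgc
Ube2q1, chr3:89773620-89773649, plus strand: gatcaggaagtgcGGACcgcggcggcggcg
Zfp142, chr1:74587999-74588028, minus strand: cccagtcGGACcatagagatgcagctcccg
The Zfp458 region had its summit 16 nt after the start and folds of 8.84 and 7.75 in the knockouts. The Ube2q1 region had its summit at 288 nt, with folds of 4.64 and 6.66, and the Zfp142 region at 274 nt, with folds of 4.58 and 5.95, so both summits lay outside the printed bases. GGAC was searched on the strand of the peak in the 50 bases after the start. It was present in 17 of the 48 gained sense regions that covered such a window whole (35.4%), in 29 of 116 retained sense regions (25%), and in 18.9% of the 32851 starts in the table. Of 6 lost regions that covered the window on the opposite strand, 0 held GGAC read on that strand, against 17.4% of all starts. A match is a description of the letters and not a methylated site.

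The second are mature microRNAs whose hairpins lay under a region on the same strand, since m6A is also known on primary microRNA transcripts. Regions over a hairpin numbered 18 of 12886 retained, 3 of 5196 gained and 0 of 893 lost regions. Retained regions are wider, with a median of 500 bp against 217 bp for gained and 208 bp for lost ones. That gives them more room to overlap a hairpin, and counts this small do not tell the classes apart. The mature sequences are printed in RNA letters with the seed, bases 2 to 8, in capitals.
mmu-miR-671-5p, retained: aGGAAGCCcuggaggggcuggag
mmu-miR-671-3p, retained: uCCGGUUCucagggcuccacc
mmu-miR-1306-3p, retained: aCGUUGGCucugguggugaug
mmu-miR-7048-5p, gained: cGGGGCUGagaggugaggaagc
No seed is shared among these 4. The Mir671 hairpin lies in Chpf2 (chr5:24592114-24592211, plus strand), under a region with folds of 11 and 8.47 in the controls against 18.3 and 18.8 in the knockouts. The Mir1306 hairpin lies in Dgcr8, which encodes the RNA-binding subunit of the Microprocessor that cuts such hairpins. Its region had folds of 1.74 and 1.66 in the controls against 3.08 and 1.36 in the knockouts, so those groups overlapped. The gained region over Mir7048 had folds of 4.61 and 3.48 in the knockouts.

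Most control regions were still present in the knockouts. Of 14104 regions in both controls, 12886 (91.4%) were retained and 893 (6.33%) were lost. Of 20263 regions in both knockouts, 5196 (25.6%) were gained. A further 8198 regions were present in another pattern, most often in knockout 1 alone (2272) or knockout 2 alone (1656). At the level of genes, counted from peaks on the gene's strand or on genes whose strand the reference used here does not give, 107 of 6850 genes marked in both controls had no peak in either knockout (1.56%). In the other direction, 1218 of 8551 genes marked in both knockouts had no peak in either control (14.2%).

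The control lists are shorter, so the same calls were made with each list cut to its 16537 strongest peaks by −log10 p, the length of the shortest list. Lost regions then numbered 1519 of 13512 (11.2%) and gained regions 2123 of 14640 (14.5%). Of the regions lost with whole lists, 775 of 893 (86.8%) overlapped a region lost with equal lists. Of the regions gained with whole lists, 2054 of 5196 (39.5%) overlapped a region gained with equal lists. The gene counts were 308 lost of 6683 and 549 gained of 7102 with equal lists.

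Loss and gain were concentrated among weak regions. Regions in both controls were split into 10 groups of near equal size by the lower −log10 p of the 2 controls. In the weakest group 15.8% were lost, and in the strongest 0.85%. In the same split of regions in both knockouts, 58.7% of the weakest group and 0.444% of the strongest were gained. The strongest group of control regions was 99.1% retained. Presence in a list and strength both come from the significance of a peak, so weak peaks drop out of another list more easily. The gradient thus follows in part from the class rule and is given as a description.

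**Figure D1:**
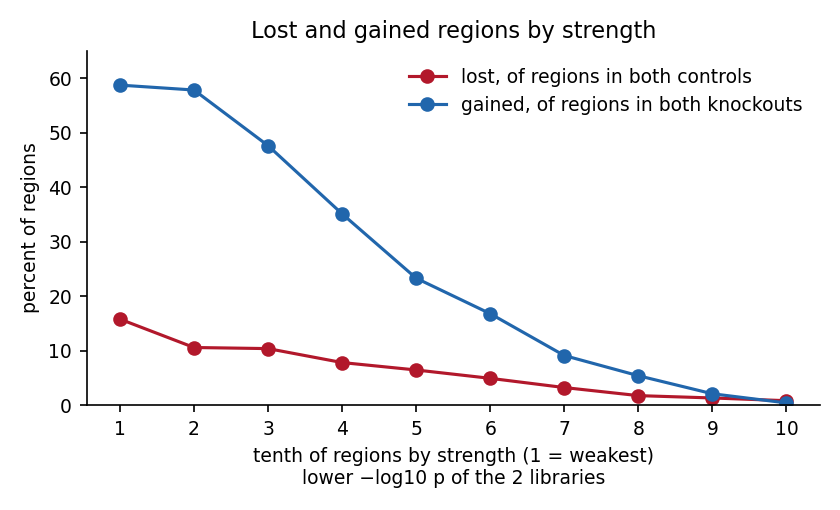
Percent of regions lost (red, of 14104 regions in both controls) or gained (blue, of 20263 regions in both knockouts), in 10 groups of strength from the weakest to the strongest, where strength is the lower −log10 p of the 2 libraries of the group. Lost regions go from 15.8% to 0.85% and gained regions from 58.7% to 0.444%.

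The 12886 retained regions let the fold values be set side by side in all 4 lists. A fold is the value in the column of the peak list that this format reserves for enrichment. It is the authors' value per peak, it comes with no error of its own, and it is used here as a description. The median fold over retained regions was 4.92 and 4.83 in the controls against 6.85 and 6.72 in the knockouts. Both knockout folds lay above both control folds in 8986 retained regions (69.7%) and below both in 435 (3.38%). The median change of a region was 0.50 on the log2 scale, knockout over control, and the middle 50% of regions lay between 0.24 and 0.73. The shift was 0.42 in the fifth of regions with the lowest mean fold and 0.59 in the fifth with the highest. It was 0.50 for regions on the strand of their gene, 0.46 for antisense regions and 0.51 for regions outside genes. The peak on spike-in 2 rose by 0.62 on the same scale, so the retained regions moved by -0.13 relative to that peak. This rests on 1 strand of 1 spike-in, and spike-in 1 went the other way, with folds of 6.04 and 5.71 in the controls and no peak in either knockout. Whether spike-in 2 and the retained regions moved for the same reason was not tested.

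**Figure D2:**
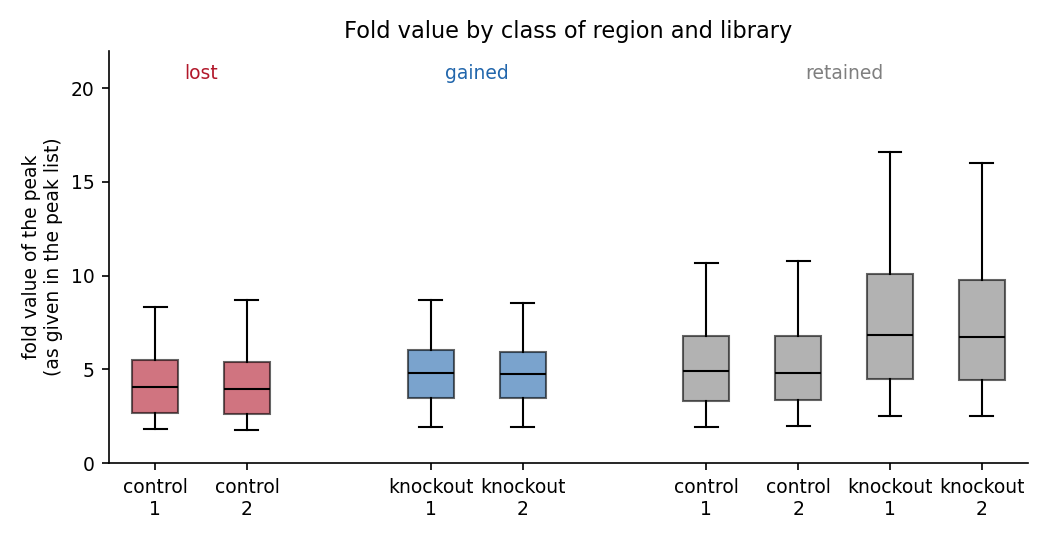
Fold value of the peaks in lost, gained and retained regions in each library that holds them. Lines are medians, boxes the middle 50% of regions and whiskers the 5th and 95th percentiles. Retained regions have medians of 4.92 and 4.83 in the controls against 6.85 and 6.72 in the knockouts, and lost regions have medians of 4.07 and 3.96.

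Some regions had high folds in all 4 lists. In Ovol2, a zinc finger regulator of epithelial identity, the folds were 21.2 and 21.1 in the controls against 25.8 and 30.6 in the knockouts. In Acvr2a, a receptor of activin, they were 21.1 and 21 against 34.1 and 27.4. Both knockout folds lay above both control folds in these regions.

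A change of rank among the retained regions is free of a common shift of all folds. The largest rise in rank was in Tcaf1, a partner of TRP channels, at chr6:42669957-42670384. Its region stood at percentiles 7.98 and 14.6 in the controls against 89.3 and 90.4 in the knockouts, with folds of 2.19 and 2.69 against 13.5 and 13.6. In Gpr137, a membrane protein of lysosomes, the region (chr19:6941018-6941501) stood at percentiles 19.2 and 17.7 against 95.2 and 95.9, with folds of 2.98 and 2.88 against 16.7 and 16.7. Dusp8, a phosphatase of stress kinases, Clock, the circadian transcription factor, and Sall2, a zinc finger factor, followed with rises of 61.9, 59.8 and 59.5 percentile points. These regions were picked from all retained regions for their change and carry no test. At equal list length those of Dusp8 and Clock did not stay retained. Under 6 other ways of filtering or joining peaks on the same strand, these 2 kept their class in 2. Sall2 kept it in 3, Tcaf1 in 4 and Gpr137 in 5.

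The largest fall was in Otx2, a homeobox factor of the primed epiblast and forebrain. Its region (chr14:48658373-48658896) had folds of 7.82 and 8.28 in the controls against 3.16 and 3.71 in the knockouts, and fell by 71.2 percentile points. Both Mettl3-line controls and 0 of the 2 Mettl3-line knockouts held a peak there. Myo6, an unconventional myosin, fell by 70.7 points and C2cd3, a centriole protein, fell by 68.1. Rb1cc1, a subunit of the autophagy-starting ULK complex, fell by 67.2. In Bicra, a subunit of a BAF chromatin remodeller, the folds were 11.3 and 13.8 in the controls against 5.21 and 5.23 in the knockouts. These 5 regions were picked as the largest falls among those with both knockout ranks below both control ranks, and they carry no test. The Otx2 region did not stay retained at equal list length and kept its class in 3 of the 6 other ways. Myo6, C2cd3 and Rb1cc1 kept it in 5 and Bicra in 6.

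Gained regions were narrower than retained ones, with a median width of 217 bp against 500 bp, and had median folds of 4.80 and 4.73 in the knockouts. A region spans all its peaks, from 4 lists when retained and 2 when gained, so its width depends in part on the class rule. Single peaks had median widths of 313 and 310 bp in the controls and 303 and 307 bp in the knockouts. Along genes of known strand, 24.4% of the 2682 gained sense regions had their summit in the last 10% of the gene body, against 41.1% of the 8230 retained sense regions. The first 10% held 13.8% of the gained and 6.39% of the retained. Summits within 500 nt of the gene's start made up 10.6% of gained sense regions (284) and 3.82% of retained ones (314). Of the gained regions, 15.0% lay outside annotated gene bodies, against 6.20% of the retained. The reference used here gives gene bodies and starts but no exons, so exon, intron and UTR cannot be told apart.

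**Figure D3:**
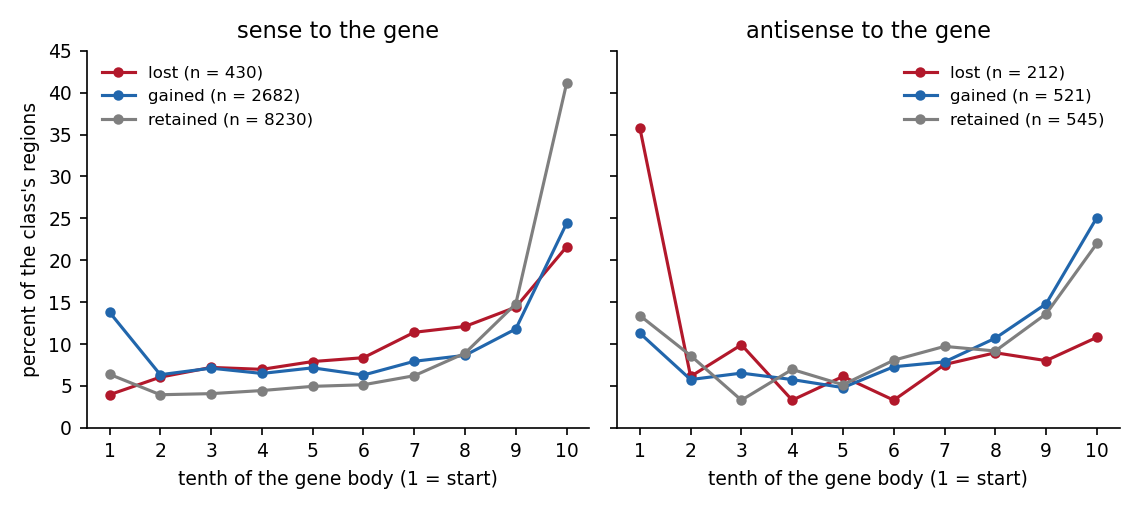
Percent of the regions of each class in 10 equal bins of the gene body, from the start to the end, for regions sense (left) and antisense (right) to genes of known strand. The last bin holds 41.1% of retained, 24.4% of gained and 21.6% of lost sense regions, and the first bin holds 35.8% of lost antisense regions.

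Among the strongest gained regions that kept their call at equal length was that in Egr1, an immediate early zinc finger factor induced by ERK signalling, with folds of 14.9 and 16.1 in the knockouts and no peak in the controls. Slc5a6, a transporter of biotin and pantothenate, had a region at chr5:31047695-31047879, 275 nt after the start, with folds of 16.9 and 14.9. Irs1, an adaptor of insulin and IGF receptors, had its strongest region at chr1:82286788-82287604 with folds of 17.1 and 14. For these 3 regions both Mettl3-line controls also held a peak. Each kept its class under all 6 other ways of filtering or joining peaks on the same strand.

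Further regions chosen by the rule for named genes were in Ltb4r1, a leukotriene receptor (16.7 and 14.6), Dpysl3, a cytoskeletal protein of growth cones (13.6 and 13.6), Sik3, a salt-inducible kinase (13.2 and 16.9), and Bdkrb2, a bradykinin receptor (12.6 and 14.6). Others were in Med13l, a subunit of the Mediator kinase module (17.4 and 12.6), and Clasp1, a microtubule-binding protein (12.5 and 14.6). The Sik3 region, at chr9:46219303-46219535, had no peak in any of the 4 Mettl3-line lists. Close to starts, the strongest gained sense regions after Slc5a6 were in Rbpj, the DNA-binding effector of Notch, 123 nt after the start (11.4 and 11), and in Adam10, a cell-surface protease that cuts Notch, 134 nt after it (10.6 and 13.2).

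Some genes gained several regions. Pdzd2, a PDZ-domain protein, had 7 gained regions and 0 retained, with folds from 4.04 to 11.1. Ahnak2, a very large scaffold protein, had 7 gained beside 6 retained, and Etl4 had 7 gained beside 4 retained. Pclo, a scaffold of the presynaptic active zone, had 6 gained and 1 retained, and none of its gained regions had a peak in the Mettl3-line lists. Vps13b, a lipid transfer protein of the Golgi, had 6 gained and 2 retained. Regions of the same gene share its RNA and are not independent.

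Lost regions had a median width of 208 bp and median folds of 4.07 and 3.96 in the controls. Of 642 lost regions on genes of known strand, 212 (33.0%) were antisense to the gene, against 521 of 3203 gained (16.3%) and 545 of 8775 retained regions (6.21%). The 212 antisense regions had median folds of 5.44 and 5.33, above the 3.38 and 3.24 of the 430 lost sense regions. Antisense peaks could reflect RNA from the other strand or reads assigned to the wrong strand, which these lists cannot tell apart. The libraries were made with a stranded kit.

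The lost antisense regions gathered just inside gene starts. Their summit lay within 500 nt of the start in 77 of 212 (36.3%), and in 76 of those 77 it was downstream of it, at a median of 165 nt. The same share was 7.49% for gained and 11.7% for retained antisense regions, and 0.698% for lost sense regions. Of the lost antisense regions 18.4% overlapped a region on the gene's own strand, against 57.0% of gained and 59.4% of retained antisense regions. This pattern was noticed in the data and carries no test. With lists of equal length 26.2% of lost regions were antisense, and 32.7% of those lay within 500 nt of the start.

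**Figure D4:**
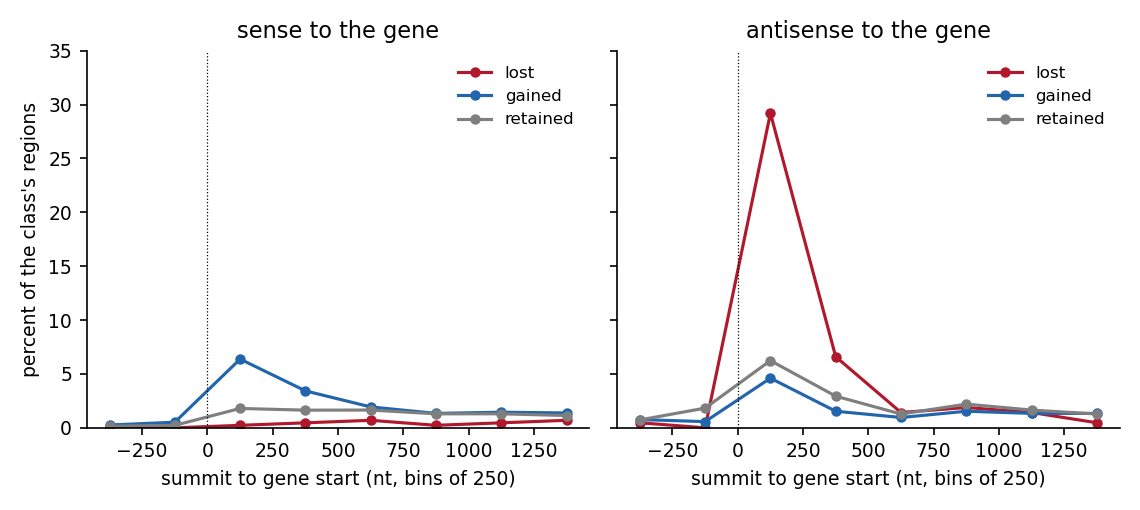
Percent of the regions of each class by distance of the summit from the gene's start, in bins of 250 nt, for sense (left) and antisense (right) regions on genes of known strand, with positive distances downstream. Between 0 and 250 nt lie 29.2% of lost, 4.61% of gained and 6.24% of retained antisense regions.

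The strongest of these regions lay in genes of several kinds. In Anp32b, an acidic histone chaperone, the region (chr4:46451097-46451467) lay 289 nt after the start with folds of 15.6 and 14.1 in the controls. In Ddx21, a nucleolar RNA helicase, it lay 170 nt after the start (chr10:62601992-62602260) with folds of 14.4 and 15.0. Pgam1, a glycolytic mutase, had folds of 12.9 and 14.3, and Hnrnpa3, an RNA-binding protein, 11.2 and 14. These 4 were listed for their high folds, so standing above the 95th percentile of lost regions (8.34 and 8.68 in the controls) follows from that choice. In the Mettl3 line, Ddx21 and Pgam1 each had a peak in 1 of the 2 controls, and Anp32b and Hnrnpa3 in neither. Further regions of this kind lay in Ipo7, an import receptor (10.1 and 10.7), Eif3a, a subunit of initiation factor 3 (11 and 8.10), Gspt1, a translation termination factor (9.47 and 8.72), and Gtf2f1, a subunit of the general factor TFIIF (8.26 and 11.7), whose summit was 33 nt after the start. These genes were listed after their values were seen.

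The strongest lost region chosen by the rule for named genes lay in Hsp90ab1, a constitutive HSP90 chaperone, at chr17:45573042-45573236, with folds of 13.4 and 12.0 and no peak in the knockouts. Bsg, a membrane glycoprotein (8.89 and 11.5), Npm1, a nucleolar chaperone (8.78 and 9.95), Rpl17 (8.22 and 9.38) and Rpl21 (8.34 and 8.19), proteins of the large ribosomal subunit, were also chosen by it. The reference does not give the strand of these 5 genes. In Bsg and Rpl21 the lost region lay on the strand opposite to the gene's stronger peaks in the Mettl3-line lists. In Hsp90ab1, Npm1 and Rpl17 it lay on the strand of those peaks, which need not be the gene's strand. Whether the lost regions of these genes were sense or antisense is therefore not known. The strand of the stronger Mettl3-line peaks was the annotated strand for 97% of 8201 genes where both were known. These 5 genes are not among those, so that share does not tell their strand. None of these 5 regions had a peak in any Mettl3-line list.

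Lost regions on the gene's own strand also included strong ones. Akap17b, an A-kinase anchoring protein, had folds of 10.7 and 11.6 at chrX:36618640-36618832, and both Mettl3-line controls held a peak there. Tor1aip2, a nuclear envelope activator of torsin (9.97 and 10.5), and Fam172a (9.61 and 9.78) had none in the Mettl3-line lists. In Eea1, a tether of early endosomes, the folds were 9.35 and 9.71 at chr10:96038635-96038825, and all 4 Mettl3-line lists held a peak. Most lost regions in a gene numbered 4, in Rad21, the cleavable subunit of cohesin, and in Baz2b, a bromodomain protein. The 4 in Rad21 had folds from 3.54 to 8.89 and lay opposite to its stronger Mettl3-line peaks. The 4 in Baz2b lay on its own strand beside 2 gained and 8 retained regions, with folds from 2.46 to 4.67. Eea1, Npm1 and Cep290, a protein of the ciliary transition zone, each had 3. The reference does not give the strand of Rad21 or Npm1, so their lost regions are not known to be on the gene's own strand.

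A lost and a gained region stood in the same gene in 138 protein-coding genes. A gene with more regions has more room to hold both. Whether 138 exceeds the number that chance would give was not tested. The count therefore does not show that peaks moved from one site to another within a gene. Hsp90ab1 had 2 lost regions and 1 gained region, the latter with folds of 7.07 and 6.77. Prdm2, a zinc finger methyltransferase, had 2 of each and 5 retained. Arid4a, a chromatin protein that binds RB1, had 3 lost, 1 gained and 6 retained, and its strongest lost region had folds of 7.20 and 8.16 against 5.80 and 5.93 for the gained one. Nsmce2, a SUMO ligase of the SMC5/6 complex, had 1 lost and 2 gained, and Slc38a1, a glutamine transporter, 2 lost and 1 gained. In Slc38a1 both lost regions lay opposite to the stronger Mettl3-line peaks and the gained one on their strand, and in Prdm2 1 lost and 1 gained region lay opposite.

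The genes were also read in lists by role, counting regions on the gene's strand or on genes of unknown strand. Over all such regions, 608 of 11461 in both controls were lost (5.30%) and 3586 of 15809 in both knockouts were gained (22.7%). With equal lists the shares were 9.63% lost and 13.7% gained. These are the levels against which each list below is read, and no list was tested. Regions antisense to a gene of known strand are left out of these counts. Of the 212 lost antisense regions, 17 lay in the 38 translation factor genes and 8 in the 82 cytosolic ribosomal protein genes. The 30 pluripotency genes held 5, and every other list at most 2.

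The writer complex lost 1 of its 20 regions in both controls and gained 2 of its 21 in both knockouts, and with equal lists it lost 4 of 19 and gained 2 of 19. In Zc3h13 a region was lost (5.29 and 4.85) and another gained (3.80 and 4.28), and in Rbm15, an RNA-binding adaptor, a region was gained (4.32 and 7.06). For the readers, 2 of 15 were lost and 4 of 18 gained, and with equal lists 4 of 15 and 4 of 15. The other lost one lay in Igf2bp1 (4.79 and 4.77), opposite to its stronger Mettl3-line peaks. Ythdc1, the nuclear YTH reader, lost a region with folds of 3.69 and 3.26 and gained 2, with folds of 4.70 and 4.87 and of 2.33 and 2.15, while Ythdf3, a cytoplasmic reader, gained a region (7.17 and 7.74). Fto, an m6A demethylase, gained 3 regions with folds from 2.40 to 7.20 and kept 1, at 3.76 and 3.68 in the controls against 4.22 and 6.37 in the knockouts. Of 16 retained writer regions, 9 had both knockout folds above both controls and 3 had both below. In Rbm15b and in a region of Virma the knockout folds were below both controls (4.12 and 5.13 against 3.13 and 3.07, and 4.33 and 3.69 against 1.75 and 1.86).

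The 30 pluripotency genes lost 1 of 40 and gained 8 of 57, and with equal lists 2 of 38 and 5 of 47. The region lost with whole lists lay in Zscan10, a zinc finger factor of stem cells (5.20 and 3.98). Gained regions lay in Tfcp2l1, a factor of naive pluripotency (7.41 and 8.68), Esrrb, an orphan nuclear receptor (2.11 and 2.42), and Myc (6.33 and 7.19), where it lay opposite to the stronger Mettl3-line peaks. The others were in Sall4 and Tbx3, with 2 each, of which 1 in each gene lay opposite in the same way, and Tdgf1. Of 38 retained regions, 27 had both knockout folds above both control folds and 1 had both below, in Klf5 (8.86 and 7.83 against 3.87 and 5.27), opposite to that gene's stronger Mettl3-line peaks. In Tbx3 a retained region had 2.35 and 2.86 against 6.54 and 7.78. Nr5a2, another nuclear receptor, had 8.92 and 7.92 against 13.0 and 12.0.

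The 22 epiblast and germ layer markers, a list that also holds the trophectoderm markers Cdx2 and Gata3, gained 9 of 21 knockout regions, in 8 genes. They lost 1 of 12 control regions, in Gsc. The gained regions were in T, the mesoderm factor Brachyury (8.45 and 5.15), Fgf5, a growth factor of the primed epiblast (6.47 and 5.69), and Cdx2, the trophectoderm factor (6.66 and 3.77). The others were in Gata4, with 2, Foxa2, Sox17, Gata3 and Eomes, with folds from 3.16 to 5.87. None of the 9 had a peak in both Mettl3-line controls. With equal lists 0 of 11 knockout regions of this list were gained and 2 of 12 control regions were lost. Of 11 retained regions, 9 had both knockout folds above both controls, such as Gata6, an endoderm factor (5.43 and 5.10 against 10.3 and 9.77), and 1 had both below, in Otx2. In bulk RNA, more cells of a type and more RNA per cell cannot be told apart, and the part of either in these calls was not tested.

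Among 21 immediate early genes, 5 of 30 knockout regions were gained and 0 of 23 control regions lost. Beside Egr1, Fos, a subunit of AP-1, had folds of 9.91 and 9.23, and Klf10 had 2 gained regions, the stronger at 9.18 and 8.80, both opposite to its stronger Mettl3-line peaks. Among genes of FGF and ERK feedback 3 of 16 were gained, in Etv4 (7.03 and 6.98), Etv5 (3.03 and 2.91) and Spry4 (7.62 and 7.73, opposite to its stronger Mettl3-line peaks), and 0 of 11 lost. The insulin and PI3K genes gained 11 of 47 and lost 0 of 35, and with equal lists gained 6 of 40 and lost 1 of 35. Irs1 gained 3 and retained 0. Pik3r1, a regulatory subunit of PI3 kinase, gained 2, the stronger at 9.89 and 5.37, and Igf1r, the IGF1 receptor, gained 1 (8.03 and 6.44) beside retained regions such as 7.74 and 8.39 against 20.3 and 15.1.

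Polycomb repressive complex 1, which ubiquitinates histone H2A, gained 15 of 39 knockout regions in 13 genes and lost 2 of 22 control regions, in Bmi1 (3.43 and 3.75) and Bcor (2.86 and 3.58). With equal lists it gained 7 of 29 and lost 2 of 22. The strongest were in Pcgf6, a subunit of a variant complex (15.2 and 10), Phc3 (8.25 and 7.01), Cbx2 (5.81 and 9.88, opposite to its stronger Mettl3-line peaks) and Cbx7 (5.41 and 8.36). A retained Bcor region had 6.21 and 8.70 in the controls against 22.7 and 23.8 in the knockouts. Of 15 gained regions, 12 had a peak in both Mettl3-line controls. Polycomb repressive complex 2, which methylates histone H3, gained 3 of 16 and lost 0 of 12, with Jarid2 the strongest (7.82 and 4.96). The enzymes of H3K4 and H3K27 methylation gained 9 of 61 and lost 1 of 49.

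Ribosomal protein genes were sparsely marked, with 16 of 82 genes holding a region. They lost 6 of 7 and gained 8 of 11, and with equal lists 6 of 7 and 2 of 4. The lost ones included those in Rpl3 (7.32 and 12.5), Rpl21, Rpl23a (6.07 and 4.5) and, with 2, Rpl17. All were in genes whose strand is not given, and 4 of the 6 lay opposite to the stronger Mettl3-line peaks. None of the 6 is therefore known to lie on its gene's own strand. The gained ones ranged from 1.38 in Rpl35 to 4.98 in Rpl29, and 6 of the 8 had a peak in both Mettl3-line controls. The gained regions of Rpl29 and Rpl17 (3.77 and 3.81 in Rpl17) lay opposite to the stronger Mettl3-line peaks. Replication-dependent histones, whose RNAs end in a stem-loop in place of a poly(A) tail, gained 11 of 13 knockout regions, in 11 genes, and had 1 control region, which was retained. With equal lists 8 of 9 were gained. H2ac13 had 9.34 and 5.39, H3c15 6.14 and 3.93, and H2ac4 4.86 and 4.51. Of the 11, 8 had a peak in both Mettl3-line controls and 9 in both chromatin-associated RNA controls. How much non-polyadenylated RNA each library held was not tested.

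Translation factors gained 12 of 31 and lost 3 of 13, and all 12 gained regions had a peak in both Mettl3-line controls. At equal length they gained 12 of 24 and lost 2 of 12. Of the 3 lost with whole lists, 1 lay opposite to the stronger Mettl3-line peaks. Eif5b, which joins the ribosomal subunits, gained 3 regions with folds from 2.86 to 3.83. The CCR4-NOT deadenylase, which removes poly(A) tails, gained 9 of 21 and lost 1 of 14, and at equal length gained 5 of 15 and lost 3 of 14. The region lost with whole lists lay in its scaffold Cnot1 (5.15 and 6.06, opposite to the stronger Mettl3-line peaks). Wnt and beta-catenin genes gained 10 of 58 and lost 1 of 41, in the receptor Lrp6 (8.08 and 8.33). At equal length they gained 3 of 43 and lost 2 of 40. Activin, Nodal and BMP genes gained 10 of 41 and lost 2 of 31, and the receptor Bmpr2 had the strongest gain (9.28 and 8.80). At equal length they gained 3 of 30 and lost 1 of 29. Other RNA methyltransferases gained 1 of 6 and glycolysis genes 2 of 11 with 2 of 7 lost. Feeder fibroblast markers gained 3 of 11 and lost 3 of 10, the latter in Fn1, with 2, and Col5a2. Of those 3 lost regions, 2 lay opposite to the stronger Mettl3-line peaks. At equal length these markers gained 2 of 9 and lost 2 of 9. Nuclear and imprinted noncoding RNAs gained 3 of 16 and lost 2 of 11, both in Meg3, where all 4 Mettl3-line lists held a peak.

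The Mettl3-line mRNA lists, from the knockout of the catalytic partner and its own controls, and the chromatin-associated RNA (caRNA) lists of the Mettl14 line show where these regions occur in other samples. A retained region had a peak in both Mettl3-line controls in 85.7% of cases, a gained one in 48.8% and a lost one in 11.1%. The same order held in both Mettl3-line knockouts (74.4%, 48.2% and 9.63%) and in both caRNA controls (90.3%, 64.3% and 28.7%). Retained regions are wider, in part by the class rule, which gives them more room to overlap a peak. Gained regions that kept their call at equal length had a peak in both Mettl3-line controls in 66.4%. The difference between lost and retained regions was also seen among strong ones. Among regions with a lower −log10 p of at least 40 in the controls, 9.43% of 106 lost and 97.0% of 5582 retained regions had a peak in both Mettl3-line controls. Of the lost regions 417 of 893 (46.7%) had no peak in any of these 8 lists, against 498 of 5196 gained (9.58%) and 155 of 12886 retained (1.20%). For lost antisense regions, 3 of 212 (1.42%) had a peak in both Mettl3-line controls.

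**Figure D5:**
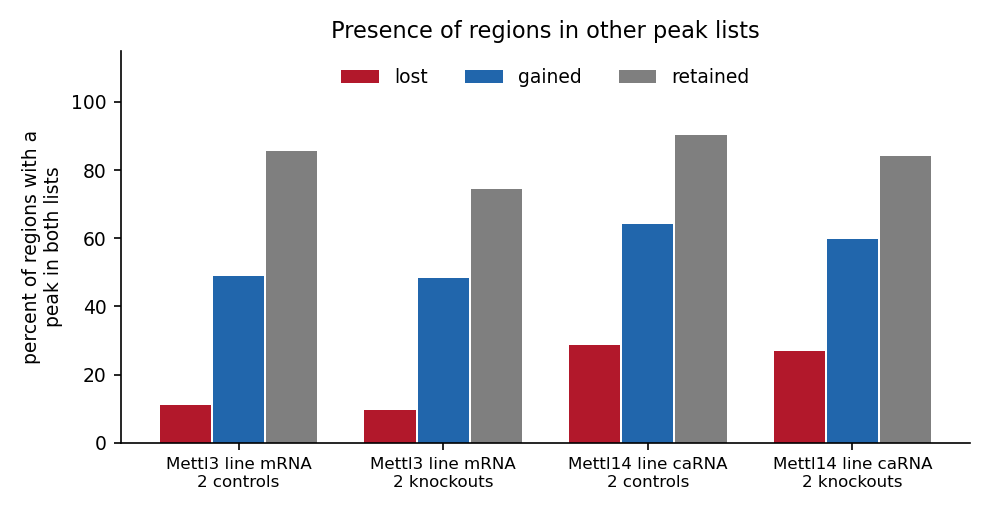
Percent of lost, gained and retained regions that have a peak on the same strand in both controls or both knockouts of the Mettl3-line mRNA and of the Mettl14-line caRNA. Retained regions reach 85.7% in the Mettl3-line controls, gained regions 48.8% and lost regions 11.1%.

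Few regions were called the same way in both lines. Of the 99 lost regions in both Mettl3-line controls, 22 were in neither Mettl3-line knockout, against 223 of 2535 gained and 796 of 11046 retained regions. Over all regions of a class these were 2.46%, 4.29% and 6.18%, but few lost regions had a peak in both Mettl3-line controls. The 22 lost ones included Zfp36l1, an RNA-binding protein of AU-rich decay (5.08 and 5.68), and Mns1, a meiosis-specific nuclear protein (10.4 and 4.26). Btrc, an F-box protein that binds phosphorylated beta-catenin (4.65 and 4.21), was also among them. Of the gained regions 127 (2.44%) were in both Mettl3-line knockouts and neither control, fewer than the 223 in the opposite pattern. The share of all regions was 1.46% for lost and 0.365% for retained ones. Counted among regions in both Mettl3-line knockouts, it was 127 of 2504 gained, 13 of 86 lost and 47 of 9589 retained. Among the 127 was that of Stc2, a secreted glycoprotein, with its summit 76 nt after the start (10.1 and 10.4).

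Whether knockout minus control differed from that in the Mettl3-line mRNA, or from that in the caRNA fraction of the same Mettl14 line, was tested on 13 measures per library. The genotype labels were permuted within each set of 4 samples, over 36 assignments, where the smallest two-sided p is 0.0556. Against the Mettl14-line caRNA, where both knockout lists (38272 and 39385 peaks) were shorter than both controls (42514 and 41315), the difference in peak number was 8966 (exact p = 0.0556, adjusted over the 13 measures 0.12). Against the Mettl3-line mRNA, with 22165 and 22592 peaks in controls and 22521 and 23239 in knockouts, it was 5378 (exact p = 0.278, adjusted 0.451). The percent of peaks outside genes was 6.10 and 6.33 in the controls against 9.88 and 9.36 in the knockouts, and that rise differed by 4.48 percentage points from the Mettl3 line and by 5.44 from the caRNA (exact p = 0.0556 for both). The median log2 change over retained regions was 0.50 here, -0.03 in the Mettl3 line and -0.05 in the caRNA, while the spike-in 2 peak rose by 0.62, 0.56 and 1.28. The median fold of retained regions itself differed in its change by 1.91 from the Mettl3 line (exact p = 0.222) and by 2.30 from the caRNA (exact p = 0.0556). With 36 assignments no test could have gone below 0.0556.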

How the data were processed

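Narrow peak lists of 4 m6A immunoprecipitations were analysed, with 8 lists of other samples for comparison. Per the submitters' processing notes, reads were handled with CASAVA, Trimmomatic 0.38, HISAT2 2.1.0 and SAMtools 1.9 on mm10, and the peak caller is not given in the sources used here. The fold of each peak (a ratio), its −log10 p-value and its −log10 q-value are deposited values, taken as given. Peaks on spike-ins were left out of regions. Lists were compared by overlap per strand (at least 1 bp). Summits were placed in RefSeq gene bodies of GRCm38.p6. Strand came from a table of starts, for 27024 of 49993 genes. A summit under several bodies named no gene.

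Named genes were protein-coding: the 10 strongest gained and lost regions kept at equal length, the 5 genes with most of each or with both, the 5 largest rises and falls in rank, and list members. A few genes that the rule picks are not reported here. Genes were also listed for lost antisense, near-start and both-line regions after their values were seen. Members and lists were chosen with earlier results of these data known. Counts over peaks have no replicate error beyond 2 samples a group. The merging and calling were tested on simulated data. Python 3 with pandas and numpy was used.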

Additional observations from a re-analysis of the deposited data

Results flagged for a closer look

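For several measures the change from control to knockout differed between these samples and another set, so they are given for a closer look, with no explanation. In these tests the smallest p possible is 0.0556, and it was reached by each difference in this paragraph, with values adjusted over 13 measures of 0.144 against the Mettl3-line mRNA and 0.12 against the caRNA. The change in peak number differed from that in the Mettl14-line caRNA by 8966 peaks. The change in median −log10 p differed by 14.4 from the Mettl3-line mRNA and by 16.4 from the caRNA. The change in covered length differed by 3400 kb and 5980 kb. The change in percent of peaks outside genes differed by 4.48 and 5.44 percentage points, and that in percent antisense by 2.26 and 4.02. The change in median fold of retained regions differed from the caRNA by 2.30. The fold of the peak on the plus strand of spike-in 2 differed in its change by 1.58 from the Mettl3 line.

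The spike-in RNAs lie outside the main measurement, and spike-in 2 gave higher folds in both knockouts than in both controls. The difference was 3.03 for the peak on the minus strand of spike-in 2 and 0.737 for the weaker peak on its plus strand. Spike-in 1 had a peak in the 2 controls, at folds of 6.04 and 5.71, and none in the knockouts.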

How the results depend on the processing

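Lists of equal length changed most counts: 1519 regions lost, 2123 gained, 308 genes lost and 549 gained, with 66.9% of gained regions in both Mettl3-line controls, 20.8% of gained sense regions in the last 10% of the gene, 26.2% of lost regions antisense and a median log2 shift of 0.53 in retained regions. With the 10000 strongest peaks 1084 regions were gained, 6817 retained, 236 genes lost and 383 gained, 24.6% of lost regions were antisense, 43.8% of those lay near starts, and the shift was 0.54. With folds of 2 or more 51.1% of gained regions were in both Mettl3-line controls. With summits joined within 100 nt 1716 regions were lost. Relative to spike-in 2 the shift turned to -0.13. The cause was not tested.

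Leaving out a library gave 1034 to 1761 lost, 5905 to 7536 gained and 13141 to 14395 retained regions, 141 to 191 genes lost and 1419 to 1691 gained, 25.5% to 30.9% of lost regions antisense, 33.1% to 36% of those near starts, shifts of 0.48 to 0.50 and a difference of 5279 to 6480 peaks. Lost regions numbered 1761 without control 1 and 1398 without control 2. With the replicate number as a block the difference of 5880 peaks kept its value, with p = 0.5 in an exact permutation test, the smallest possible. The numbers did not pair the samples (r = 0.01 over retained regions). Of 84 alternatives 60 were counted as leaving the result unchanged. A count had to stay within 1.5 times, a share within its 95% Wilson interval, and the median shift within the standard deviation between replicates. The difference in peaks only had to keep its sign. The interval treats regions as independent, so it is no replicate error. The measure of motifs at summits was not run, as no genome was used. Depth was unknown, so a missing peak is not a missing mark.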
